A study of Mus musculus with 6 samples.

Results

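The BCL2 family decides whether a cell keeps its mitochondria intact or dies by apoptosis. This account covers 10 of its genes in mouse bone marrow pro-B cells, an early stage of B cell development at which the immunoglobulin heavy chain gene is put together. They are the survival genes Bcl2, Bcl2l1 and Mcl1, the BH3-only death genes Bcl2l11, Bmf, Bbc3 and Bid, and the effector genes Bax, Bak1 and Bok. They were found by gene symbol in the expression tables, which listed 54752 gene identifiers, and each symbol stood on exactly 1 identifier in all 6 libraries.

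Messenger RNA was measured in pro-B cells sorted by flow cytometry from the bone marrow of adult C57BL/6 mice. The 3 Skiv2l-deleted mice carried floxed Skiv2l alleles (genotype Skiv2lfl/fl-Cd79a-Cre), with Cre recombinase driven from Cd79a, a gene that is switched on early in the B lineage. The 3 control mice carried the same floxed alleles (Skiv2lfl/fl), and their labels name no Cre, so effects of Cre and of the deletion cannot be told apart. Each mouse gave 1 library, and p-values measure the spread between these mice. The SKIV2L protein is an RNA helicase. With its SKI complex partners it threads transcripts into the exosome of the cytosol, which degrades them. How the BCL2 family stands in the Skiv2l-deleted cells is the question asked here.

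BCL2 family proteins act by binding each other. The survival proteins BCL2, BCL-XL (from Bcl2l1) and MCL1 hold the effectors BAX and BAK in check at the mitochondrial outer membrane. BH3-only proteins, which share a single short helix called BH3 with the rest of the family, sense stress or lost growth factor signals, occupy the groove of the survival proteins and release or activate the effectors, which then form pores and let cytochrome c out. B cell precursors depend on MCL1 and on interleukin 7 signalling, and at the pro-B and pre-B stages cells with a failed rearrangement are removed by apoptosis.

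Among the 10 genes, the death genes Bbc3, Bmf and Bok were higher in Skiv2l-deleted pro-B cells and the survival gene Bcl2l1 was lower. Mcl1, the most abundant member, stood at nearly the same level in both groups. Levels are in FPKM, a measure of expression per length of transcript and per size of library that the authors deposited. Differences were tested with limma on log2(FPKM + 1) over the 13539 genes that reached 1 FPKM in 3 or more libraries, and a gene was called where its Benjamini-Hochberg adjusted p was below 0.05. A log2 fold change is Skiv2l-deleted minus control on this scale and understates the change of low genes. All 10 members were tested, and 3 rose, 1 fell and 6 did not pass. Over all genes 8.84% were called, 4.97% upward and 3.87% downward (673 and 524 genes). With median-of-ratios scaling 584 were higher and 638 lower, and with quantile normalization 554 and 601. Because the 10 genes were chosen with earlier results of these data known, their count is a description and has no test of its own. Bbc3 reached 1 FPKM in the 3 Skiv2l-deleted libraries and in 0 control libraries, so it could enter the test only through the group in which it was higher. Each member that was called lost its call in at least 1 omission of a single library. Outside the 10 genes, the survival gene Bcl2l2 was also called higher (6.53 FPKM in Skiv2l-deleted and 2.96 FPKM in control libraries, limma adjusted p = 0.0230).

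**Figure D1:**
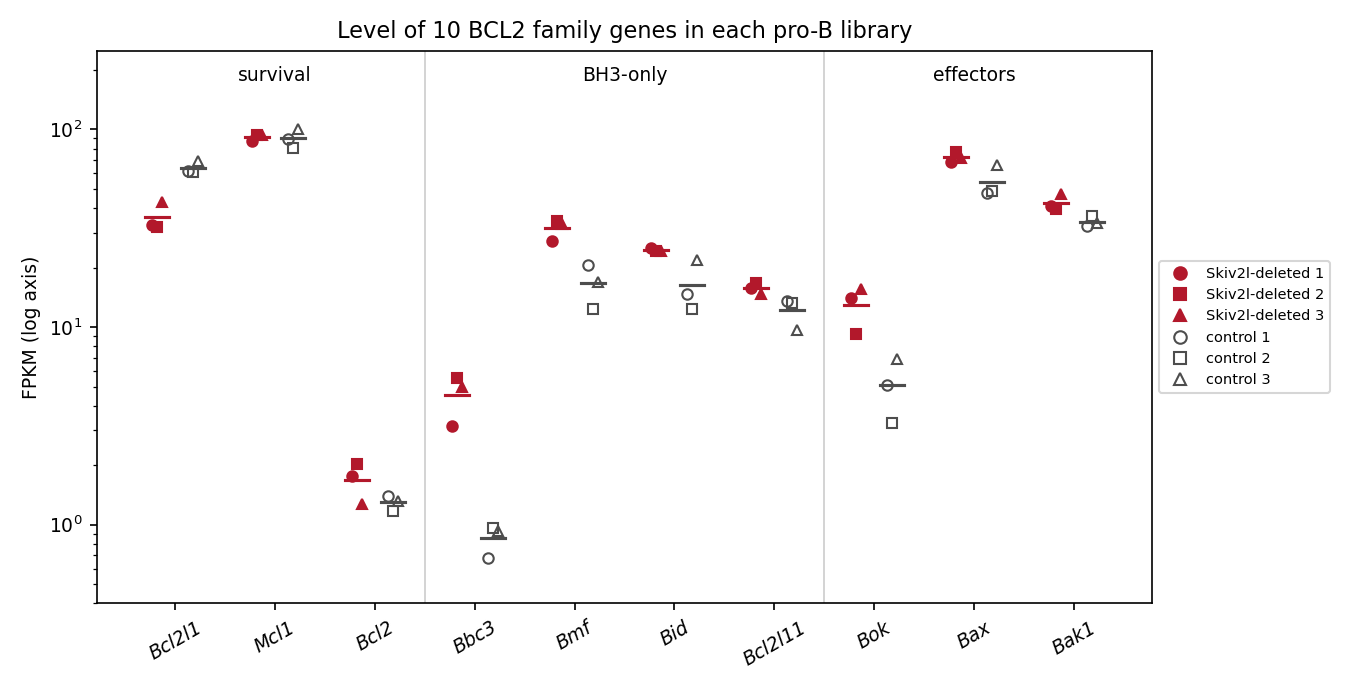
FPKM of the 10 genes on a log axis, by functional class, in each of 3 Skiv2l-deleted libraries (filled red) and 3 control libraries (open grey), with a horizontal line at each group mean. Bcl2l1 sits lower in the Skiv2l-deleted libraries (32.0 to 42.9 FPKM) than in controls (60.8 to 68.8 FPKM), Bbc3, Bmf and Bok sit higher, and Mcl1 overlaps.

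The libraries were checked against the labels. Skiv2l stood at 9.53, 16.1 and 10.9 FPKM in Skiv2l-deleted and 25.4, 20.2 and 46.3 FPKM in control libraries (log2 fold change -1.21, limma adjusted p = 0.0630), without overlap and without passing the threshold. Without control 3 and Skiv2l-deleted 2 together it passed (-1.08, limma adjusted p = 0.0180). Which exons were floxed is not known here, and reads from the other exons count toward it. Cd79a, the gene that drives Cre, stood at 367, 368 and 441 FPKM in Skiv2l-deleted and 726, 640 and 739 FPKM in control libraries (-0.84, limma adjusted p = 0.0123). All 14 pro-B markers, among them Ebf1, Pax5 and Dntt, were at 1 FPKM or more in all 6 libraries, but 7 of them were called higher and 1 (Cd79a) lower in Skiv2l-deleted cells, and they summed to 4767 to 5942 FPKM there against 3127 to 4295 FPKM in controls. Dntt was at 2.80 times the control level, Kit at 2.61 times and the surrogate light chain gene Igll1 at 2.42 times. In the same libraries 8 of 10 mitosis genes were called lower in Skiv2l-deleted cells (sum 908 to 1019 FPKM, against 1516 to 1849 FPKM in controls), and so were 5 of 7 tested markers of later B cells (sum 259 to 326 against 434 to 483 FPKM). Of 7 plasma cell genes 5 were tested, and 3 were lower and 1, Mzb1, higher (347 FPKM in Skiv2l-deleted and 241 FPKM in control libraries). Among them Igha and Jchain were at 0.302 FPKM or less in Skiv2l-deleted libraries and at 164 to 380 FPKM (Igha) and 36.9 to 75.2 FPKM (Jchain) in controls. In sorted bulk samples, fewer cells of a type and less RNA per cell cannot be told apart, and the part of these differences in the BCL2 family values was not tested. Of 8 T and NK cell genes 6, with Cd3d, Cd3e and Cd3g, were below 1 FPKM in every library. The remaining ones were Klrb1c, called higher (11.2 FPKM in Skiv2l-deleted and 2.90 FPKM in control libraries, limma adjusted p = 0.00608), and Nkg7 (4.56 to 30.2 FPKM in Skiv2l-deleted and 1.52 to 15.7 FPKM in control libraries). The 4 plasmacytoid dendritic cell genes summed to 96 to 121 FPKM in Skiv2l-deleted and 52.2 to 74.5 FPKM in control libraries. Bst2 and Tcf4 held most of this sum, and of these 2, the only ones tested, 0 were called by limma. Siglech was at 6.09 FPKM in Skiv2l-deleted 2, and otherwise Siglech and Ccr9 were at 1.04 FPKM or less. Platelet and stromal lists summed to 1.89 FPKM or less. Myeloid genes summed highest in Skiv2l-deleted 2 and control 3, and all 10 members are given without that pair beside the myeloid values.

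Among the survival genes, Bcl2l1 (chromosome 2, 152780668 to 152831728, minus strand, GRCm38) encodes BCL-XL, which supports cells at the pro-B to pre-B transition. It reached 32.7, 32.0 and 42.9 FPKM in the Skiv2l-deleted mice and 61.7, 60.8 and 68.8 FPKM in the controls. Every Skiv2l-deleted library lay below every control library. It averaged 35.8 ± 6.09 FPKM in Skiv2l-deleted and 63.8 ± 4.39 FPKM in control libraries (SD, n = 3 each), 0.562 of the control level, with a log2 fold change of -0.82 ± 0.14 (SE, limma adjusted p = 0.0176). Its size was greater than that of 92.9% of the genes tested. The direction was the same in each omission of 1 library (-0.96 to -0.75). The call was lost without Skiv2l-deleted 1 (limma adjusted p = 0.0834), Skiv2l-deleted 2 (0.0507), control 1 (0.0629) or control 2 (0.0516).

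Mcl1 (chromosome 3, 95658788 to 95663176) encodes a short-lived survival protein that B cell precursors need throughout. Its messenger RNA measured 87.0, 93.6 and 94.2 FPKM in Skiv2l-deleted mice and 89.7, 80.7 and 100.3 FPKM in the controls, and the groups overlapped. It averaged 91.6 ± 3.96 FPKM in Skiv2l-deleted and 90.2 ± 9.83 FPKM in control libraries (SD, n = 3 each). The 95% confidence interval of the log2 fold change ran from -0.24 to 0.29 around 0.03 (limma adjusted p = 0.922), and the sign turned with median-of-ratios scaling (-0.0305) and without control 2 (-0.0508). Mcl1 ranked first of the 10 genes in both groups.

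Bcl2 (chromosome 1, 106538178 to 106714274) encodes the founding survival protein of the family. Its values were 1.76, 2.04 and 1.28 FPKM in the Skiv2l-deleted libraries and 1.40, 1.18 and 1.32 FPKM in the controls. Skiv2l-deleted 3 lay among the controls and the other Skiv2l-deleted libraries above them. The log2 fold change was 0.22 ± 0.16 (SE, 95% confidence interval -0.17 to 0.60, limma adjusted p = 0.465). The mean read depth over the gene was 1.67 to 2.96 per base, the lowest of the survival genes, which limits what could be detected.

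Among the BH3-only genes, Bbc3 (chromosome 7, 16308393 to 16318205) encodes PUMA, which binds all survival proteins and is induced by p53 and by other stress pathways. Its messenger RNA measured 3.14, 5.53 and 5.0 FPKM in Skiv2l-deleted mice and 0.675, 0.963 and 0.927 FPKM in the controls. The lowest Skiv2l-deleted library was above the highest control. It averaged 4.56 ± 1.25 FPKM in Skiv2l-deleted and 0.855 ± 0.157 FPKM in control libraries (SD, n = 3 each), a ratio of 5.33. The log2 fold change was 1.56 ± 0.20 (SE, limma adjusted p = 0.00929). Bbc3 passed the filter only through the group in which it was higher, so this p carries that selection. With no filter on low values the limma adjusted p was 0.0466. With a pseudocount of 0.1 in place of 1 the log2 fold change was 2.26. The call was lost without Skiv2l-deleted 3 (limma adjusted p = 0.0509). Read depth over Bbc3 was 0.524 to 4.68 per base, so its level in controls rests on few reads.

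Bmf (chromosome 2, 118528757 to 118549687) encodes a BH3-only protein known to respond to detachment, cytokine loss and restrained cap-dependent translation. Its values were 27.3, 34.4 and 33.3 FPKM in the Skiv2l-deleted libraries and 20.6, 12.3 and 17.0 FPKM in the controls, without overlap. It averaged 31.7 ± 3.86 FPKM in Skiv2l-deleted and 16.7 ± 4.17 FPKM in control libraries (SD, n = 3 each), a ratio of 1.90 and a log2 fold change of 0.91 ± 0.20 (SE, limma adjusted p = 0.0347). The call was lost without Skiv2l-deleted 1 (limma adjusted p = 0.0862), Skiv2l-deleted 2 (0.0939), Skiv2l-deleted 3 (0.136) or control 2 (0.0673), while the log2 fold change stayed between 0.72 and 1.07.

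Bid (chromosome 6, 120891930 to 120916853) encodes the BH3-only protein that links death receptors to mitochondria after cleavage by caspase-8. Its messenger RNA measured 25.1, 24.2 and 24.1 FPKM in Skiv2l-deleted mice and 14.7, 12.4 and 21.8 FPKM in the controls. The groups did not overlap, and control 3 was nearest to the Skiv2l-deleted libraries. The log2 fold change of 0.60 ± 0.20 (SE, 95% confidence interval 0.13 to 1.06) did not pass (limma adjusted p = 0.110). Without control 3 it was 0.81 and passed (limma adjusted p = 0.0118).

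Bcl2l11 (chromosome 2, 128126038 to 128162547) encodes BIM, a main killer of B cell precursors and of autoreactive B cells. Its values were 15.7, 16.8 and 14.8 FPKM in the Skiv2l-deleted libraries and 13.5, 13.3 and 9.61 FPKM in the controls. The groups did not overlap, with Skiv2l-deleted 3 and control 1 closest together. The log2 fold change was 0.36 ± 0.15 (SE, limma adjusted p = 0.195), and 0 of 17 alternative settings called it. It was 0.22 without control 3.

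Among the effectors, Bok (chromosome 1, 93685660 to 93695764) encodes a BAX-like protein that survival proteins restrain poorly and that is kept low by degradation. Its messenger RNA measured 14.1, 9.24 and 15.6 FPKM in Skiv2l-deleted mice and 5.06, 3.28 and 6.91 FPKM in the controls. Skiv2l-deleted 2 was the lowest of its group and still above every control. It averaged 13.0 ± 3.32 FPKM in Skiv2l-deleted and 5.09 ± 1.81 FPKM in control libraries (SD, n = 3 each), a ratio of 2.55 and a log2 fold change of 1.21 ± 0.27 (SE, limma adjusted p = 0.0399). The call was lost without Skiv2l-deleted 1 (limma adjusted p = 0.149), Skiv2l-deleted 3 (0.147), control 1 (0.113) or control 2 (0.0888).

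Bax (chromosome 7, 45461697 to 45466898) encodes the main effector of lymphocytes together with BAK. Its values were 68.2, 77.3 and 72.0 FPKM in the Skiv2l-deleted libraries and 47.9, 48.8 and 66.3 FPKM in the controls. Control 3 was close to Skiv2l-deleted 1, and the groups did not overlap. The log2 fold change of 0.42 ± 0.15 (SE, 95% confidence interval 0.08 to 0.77) did not pass (limma adjusted p = 0.129). Without control 3 it was 0.57 and passed (limma adjusted p = 0.0184).

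Bak1 (chromosome 17, 27019810 to 27029009) encodes BAK, which sits in the mitochondrial membrane and is held by MCL1 and BCL-XL. Its messenger RNA measured 40.9, 39.6 and 47.3 FPKM in Skiv2l-deleted mice and 32.4, 36.4 and 33.5 FPKM in the controls, without overlap. The log2 fold change of 0.31 ± 0.11 (SE, 95% confidence interval 0.04 to 0.58) did not pass (limma adjusted p = 0.142). The gene Ggnbp1 spans the whole of Bak1 on the opposite strand, at 8.24 to 9.75 FPKM in Skiv2l-deleted and 6.50 to 9.55 FPKM in control libraries. No source used here says whether counting used strand, so reads of the overlapping genes cannot be told apart. Bid shares 913 bases with Bcl2l13 on the opposite strand (12.2 to 12.5 FPKM in Skiv2l-deleted and 8.86 to 13.2 FPKM in control libraries).

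**Figure D2:**
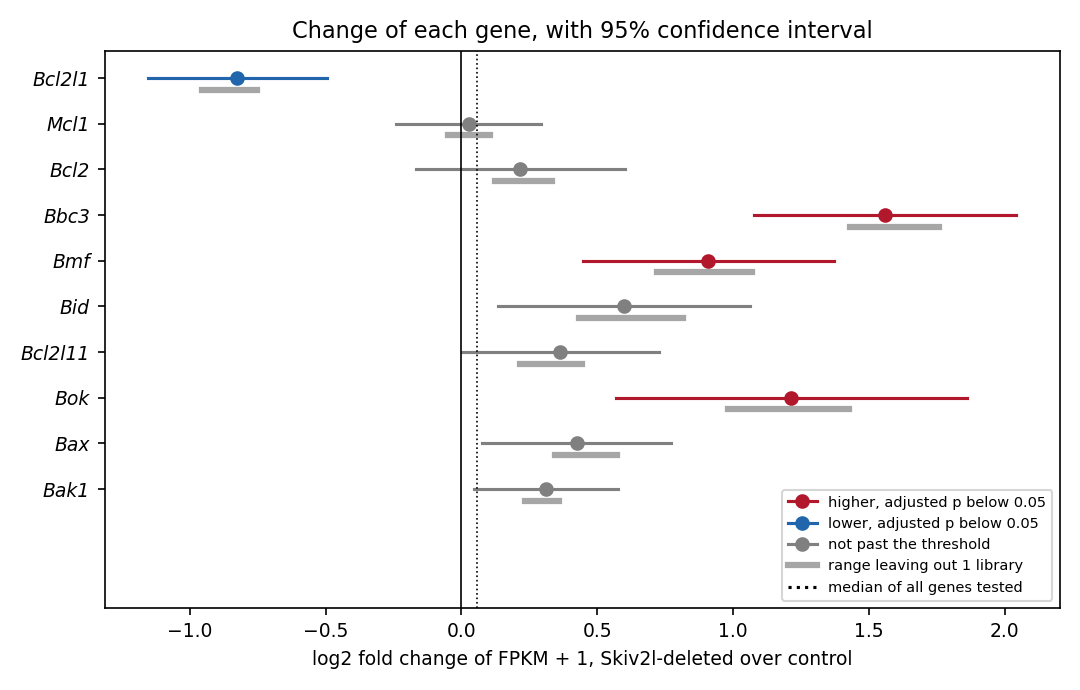
Log2 fold change of FPKM + 1, Skiv2l-deleted over control, for each of the 10 genes, with its 95% confidence interval from limma and, in grey below it, the range of the fold change when 1 library is left out. Bbc3 (1.56), Bok (1.21) and Bmf (0.91) lie to the right and Bcl2l1 (-0.82) to the left, and the dotted line marks the median of all genes tested (0.06).

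Counted over the family, 7 genes were higher and 1 was lower with no overlap between the groups, and 2 overlapped. The 7 include Bbc3, which passed the filter only through the group in which it was higher. Over all genes tested the groups did not overlap in 32.2%, with 19.9% higher and 12.3% lower. The log2 fold change was above 0 in 9 members and in 57.8% of all genes, and the median was 0.39 over the members against 0.06 over all genes. For each of the 8 members without overlap the exact two-sided permutation p was 0.1, the smallest that 3 against 3 libraries allow. Leaving out 1 library gave 1 call without Skiv2l-deleted 1, Skiv2l-deleted 3 or control 2, 2 calls without Skiv2l-deleted 2 or control 1, and 6 without control 3. The calls over all 13539 genes moved as well. They numbered 199, 709 and 193 without Skiv2l-deleted 1, 2 and 3, and 399, 508 and 1767 without control 1, 2 and 3.

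The order of the levels differed between the groups at Bcl2l1 and Bbc3. In Skiv2l-deleted libraries Mcl1 (91.6 FPKM) was followed by Bax (72.5), Bak1 (42.6), Bcl2l1 (35.8), Bmf (31.7), Bid (24.5), Bcl2l11 (15.8), Bok (13.0), Bbc3 (4.56) and Bcl2 (1.69 FPKM). The libraries of Bak1 and Bcl2l1, of Bcl2l1 and Bmf, and of Bcl2l11 and Bok overlapped there, and the other neighbours did not. In controls Mcl1 (90.2 FPKM) was followed by Bcl2l1 (63.8), Bax (54.3), Bak1 (34.1), Bmf (16.7), Bid (16.3), Bcl2l11 (12.1), Bok (5.09), Bcl2 (1.30) and Bbc3 (0.855 FPKM). Bcl2l1 and Bax, Bmf and Bid, and Bid and Bcl2l11 overlapped in controls, and the other neighbours did not. Bcl2l1 thus stood above Bax and Bak1 by its mean in controls and below both in Skiv2l-deleted cells.

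Summed by class, the messenger RNA of the survival genes came to 122, 128 and 138 FPKM in the Skiv2l-deleted libraries and to 153, 143 and 171 FPKM in the controls. The BH3-only genes summed to 71.3, 81.0 and 77.2 FPKM in Skiv2l-deleted libraries and to 49.5, 39.0 and 49.3 FPKM in controls. The effectors summed to 123, 126 and 135 FPKM in Skiv2l-deleted libraries and to 85.3, 88.4 and 107 FPKM in controls. None of these sums overlapped between the groups, and since the members were chosen with results known they carry no test. BH3-only messenger RNA per unit of survival messenger RNA was 0.593 ± 0.0383 in Skiv2l-deleted and 0.295 ± 0.0262 in control libraries (SD, n = 3 each). Effector messenger RNA per unit of survival messenger RNA was 0.992 ± 0.0198 in Skiv2l-deleted and 0.601 ± 0.0372 in control libraries. The ratio of Bax to Bcl2l1 was 2.09, 2.42 and 1.68 in Skiv2l-deleted libraries and 0.776, 0.802 and 0.963 in controls.

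The classes also differed in make-up. Bcl2l1 made up 27.7% ± 3.03 of the survival messenger RNA in Skiv2l-deleted libraries and 41.1% ± 1.30 in controls, while Mcl1 made up 71.0% ± 2.68 in Skiv2l-deleted libraries and 58.0% ± 1.29 in controls (SD, n = 3 each). Bcl2 contributed 1.32% in Skiv2l-deleted libraries and 0.840% in controls. Within the BH3-only members, which leave out Bad, Bmf and Bid together gave most of the signal in both groups. Bmf was at 41.3% ± 2.67 in Skiv2l-deleted and 35.9% ± 5.17 in control libraries. Bbc3, whose fold change was the greatest of the 10, made up 5.90% ± 1.31 of the class in Skiv2l-deleted libraries and 1.91% ± 0.554 in controls. Bok made up 10.1% ± 2.41 of the effector messenger RNA in Skiv2l-deleted and 5.37% ± 1.47 in control libraries.

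**Figure D3:**
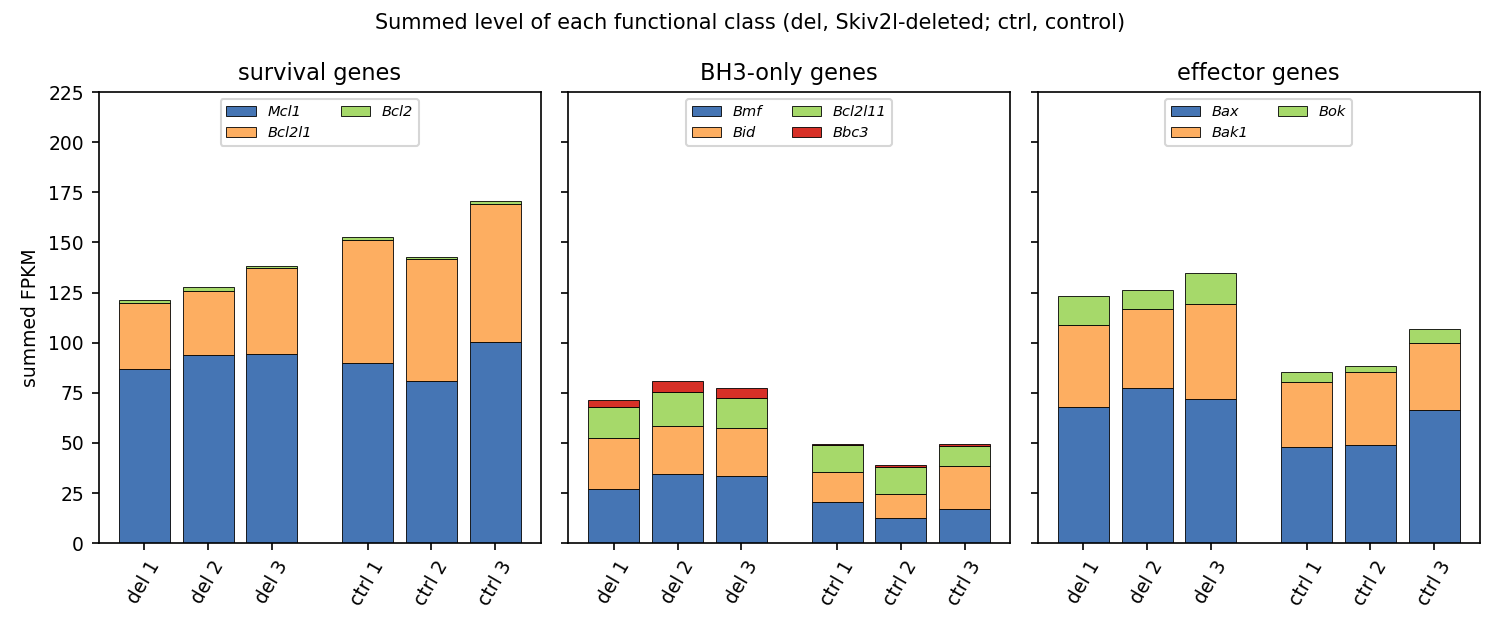
Stacked FPKM of the survival, BH3-only and effector genes among the members, in each library. Skiv2l-deleted (del) stands left of control (ctrl), on a shared axis from 0. The survival bars are shorter in the Skiv2l-deleted libraries (122 to 138 FPKM) than in controls (143 to 171 FPKM) with a shorter Bcl2l1 segment, and the BH3-only and effector bars are taller.

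Promoter windows were read to show the sequence at the start sites of the called genes and of Bcl2l11. They come from RefSeq (GRCm38.p6), span 250 bases before to 50 after a start site, and were found for all 10 members in 17 windows. Each was searched on both strands for TGATGNAA (bound by CHOP with ATF4), GTAAACA (FOXO factors), TTCNNNGAA (STAT factors), GGGCGG (the GC box), CACGTG (the E-box) and the p53 decamer, a single copy of the repeat of which a full p53 response element holds a pair. Capitals mark a match on either strand, so that TGTTTAC is GTAAACA read on the other strand and CCGCCC the GC box. Both windows with a FOXO match, of Bbc3 and Bcl2l11, are printed, together with the windows nearest to the annotated starts of Bcl2l1, Bmf and Bok. The printed Bbc3 window has its start site 1868 bases from the annotated gene start. The nearest Bbc3 window, at 1190 bases, held GC boxes and no other searched motif. The windows with a p53 decamer or an E-box are not printed.
Bcl2l1, chr2:152831679-152831978, minus strand: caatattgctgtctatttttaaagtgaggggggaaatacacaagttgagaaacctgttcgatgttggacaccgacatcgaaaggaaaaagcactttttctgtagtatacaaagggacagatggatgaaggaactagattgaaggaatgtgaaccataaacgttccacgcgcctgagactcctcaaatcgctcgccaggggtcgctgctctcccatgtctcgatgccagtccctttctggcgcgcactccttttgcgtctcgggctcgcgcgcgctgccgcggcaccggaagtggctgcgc
Bmf, chr2:118549637-118549936, minus strand: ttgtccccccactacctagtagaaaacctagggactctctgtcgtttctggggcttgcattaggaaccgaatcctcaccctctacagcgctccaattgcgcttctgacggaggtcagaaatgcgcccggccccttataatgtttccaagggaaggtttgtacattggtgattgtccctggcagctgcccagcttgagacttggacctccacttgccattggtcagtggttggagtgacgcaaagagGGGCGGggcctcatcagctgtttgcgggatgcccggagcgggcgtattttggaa
Bok, chr1:93685325-93685624, plus strand: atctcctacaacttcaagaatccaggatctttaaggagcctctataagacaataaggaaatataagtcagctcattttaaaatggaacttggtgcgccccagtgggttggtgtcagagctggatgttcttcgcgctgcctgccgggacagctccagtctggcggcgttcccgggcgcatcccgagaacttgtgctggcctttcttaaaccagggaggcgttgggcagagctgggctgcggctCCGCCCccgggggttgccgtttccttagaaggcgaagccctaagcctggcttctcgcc
Bbc3, chr7:16310011-16310310, plus strand: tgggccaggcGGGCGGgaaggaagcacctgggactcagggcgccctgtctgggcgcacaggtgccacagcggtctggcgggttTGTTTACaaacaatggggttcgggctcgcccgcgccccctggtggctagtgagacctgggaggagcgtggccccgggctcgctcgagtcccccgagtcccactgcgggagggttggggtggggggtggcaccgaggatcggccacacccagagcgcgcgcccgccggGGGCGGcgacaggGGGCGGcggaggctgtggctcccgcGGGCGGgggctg
Bcl2l11, chr2:128125788-128126087, plus strand: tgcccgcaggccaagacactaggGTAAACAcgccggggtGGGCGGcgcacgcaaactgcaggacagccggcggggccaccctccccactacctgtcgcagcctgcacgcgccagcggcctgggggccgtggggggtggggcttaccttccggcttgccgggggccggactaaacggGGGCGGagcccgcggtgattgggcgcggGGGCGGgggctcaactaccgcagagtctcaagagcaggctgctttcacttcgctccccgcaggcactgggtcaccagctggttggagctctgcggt

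The letters GTAAACA stood in 2 of the 17 member windows, of Bbc3 and Bcl2l11, and in 3.65% of 32851 mouse promoter windows. The GC box stood in 11 of the 17 member windows, from all members except Bcl2l1 and Bak1, and in 35.7% of all windows. Those 11 windows were 55.3 to 78.0% G and C, against a median of 52.7% over all windows. Some windows of Bbc3 overlap each other, so the shares are not of like windows. The single capital runs in the Bmf and Bok windows are GC boxes, as are the capitals of Bbc3 and Bcl2l11 other than the FOXO match. The Bcl2l1 window, which is 52.3% G and C, held none of the searched motifs, nor did its other 2 windows. The p53 decamer stood in 2 of the 17 windows, of Bax and Bmf (8.36% of all windows), and the E-box in 2, of Bax and Bbc3 (7.15%). TGATGNAA and TTCNNNGAA were in 0 of the 17 windows (3.97% and 8.3% of all windows). A match is a run of letters, and binding was not measured.

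The wider apoptosis pathway was described with 6 further lists of 82 genes. Of these, 67 were tested and 8 rose, 0 fell and 59 did not pass, where 8.84% of all genes were called, 4.97% higher and 3.87% lower. An unadjusted p under 0.05 was found for 22 of the 67 and for 25.6% of all genes. Without control 3 and Skiv2l-deleted 2 together 9 were higher and 3 lower, and over all genes 1014 were higher and 788 lower. Their median log2 fold change was 0.15, against 0.06 over all genes.

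Among the other BCL2 family genes, 1 of 6 tested rose and 0 fell (median 0.16), where 4.97% of all genes rose and 3.87% fell. Bcl2l2 encodes the survival protein BCL-W and stood at 6.48, 6.71 and 6.40 FPKM in Skiv2l-deleted and 3.94, 2.31 and 2.63 FPKM in control libraries (log2 fold change 0.95 ± 0.18, limma adjusted p = 0.0230). The call was lost without Skiv2l-deleted 1, 2 or 3 or without control 2 (highest limma adjusted p = 0.0988), and without the pair of control 3 and Skiv2l-deleted 2 (0.0619). The locus Gm20521, which overlaps Bcl2l2 on the same strand, was listed at 2.70, 6.75 and 15.0 FPKM in Skiv2l-deleted and 3.69, 3.47 and 108 FPKM in control libraries, so the split of reads between these loci is uncertain. The mitophagy receptor gene Bnip3l (0.19) and Bcl2l12 (-0.21) did not pass. Pmaip1, which encodes the BH3-only protein NOXA, was listed at 0.897 to 0.942 FPKM in Skiv2l-deleted and 0.918 to 1.10 FPKM in control libraries and did not reach the filter. Hrk and Bcl2l10 were listed at 0 in all 6 libraries. The haematopoietic survival genes Bcl2a1a, Bcl2a1b and Bcl2a1d, near-identical copies, were listed at 0.472 FPKM or less in every library.

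No gene of the machinery downstream of cytochrome c release was called. Of 17 apoptosome, caspase and inhibitor genes tested, 0 rose and 0 fell by limma, 4 had an unadjusted p under 0.05 (25.6% of all genes did), and the median log2 fold change was 0.02. Birc5, the mitotic inhibitor survivin, had the largest difference, at 138, 168 and 133 FPKM in Skiv2l-deleted and 193, 234 and 375 FPKM in control libraries (log2 fold change -0.82, limma adjusted p = 0.0870). Without control 3 and Skiv2l-deleted 2 together it passed (limma adjusted p = 0.0313). Of 7 tested death receptor genes 0 passed, 1 had an unadjusted limma p under 0.05, and the kinase gene Ripk1, at 16.8, 19.3 and 16.1 FPKM in Skiv2l-deleted against 11.1, 13.4 and 10.3 FPKM in control libraries, was closest (log2 fold change 0.56, limma adjusted p = 0.0538). Tnfrsf1a, the receptor of tumour necrosis factor, was at 3.77, 19.2 and 3.06 FPKM in Skiv2l-deleted and 2.45, 1.67 and 8.95 FPKM in control libraries, highest in the libraries with the most myeloid messenger RNA, and its log2 fold change of 0.70 ± 0.72 turned to -0.0354 without Skiv2l-deleted 2 and was 0.54 without Skiv2l-deleted 2 and control 3. Casp8, whose product cleaves BID, was at 48.9 ± 2.27 FPKM in Skiv2l-deleted and 47.0 ± 3.92 FPKM in control libraries (SD, n = 3 each). Of 6 tested genes for partners and turnover of BCL2 proteins 0 passed, 1 had an unadjusted limma p under 0.05, and these included the MCL1 ubiquitin ligase gene Huwe1 (0.39, and 0.06 to 0.65 with 1 library left out) and the MCL1 deubiquitinase gene Usp9x (0.53, and 0.21 to 0.81). Dynll1, for the dynein light chain that binds BIM and its relative BMF, was at 0.10, and at -0.19 without control 1.

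Among 17 tested regulators of the family, 5 rose and 0 fell (median 0.23), where 4.97% of all genes rose and 3.87% fell. Trp53, which encodes p53 itself, stood at 145, 132 and 139 FPKM in Skiv2l-deleted and 97.9, 96.4 and 99.6 FPKM in control libraries (log2 fold change 0.50 ± 0.09, limma adjusted p = 0.0227). Foxo3, a transcription factor known to induce Bbc3 and Bcl2l11 when growth factor signals fall, stood at 13.1, 12.4 and 13.3 FPKM in Skiv2l-deleted and 9.47, 8.36 and 8.94 FPKM in control libraries (0.49 ± 0.11, limma adjusted p = 0.0411). Ddit3, which encodes the stress factor CHOP, stood at 28.6, 36.4 and 37.8 FPKM in Skiv2l-deleted and 13.2, 12.5 and 23.2 FPKM in control libraries (1.07 ± 0.24, limma adjusted p = 0.0405). Ddit3 shares 68 bases with the opposite-strand gene Mars, which was also higher (43.6 FPKM in Skiv2l-deleted against 29.6 FPKM in control libraries, limma adjusted p = 0.0484). In Trp53, Foxo3 and Ddit3 every Skiv2l-deleted library was above every control. The interleukin 7 signalling genes Il2rg (0.67, limma adjusted p = 0.0119) and Jak3 (0.80, limma adjusted p = 0.0163), for the shared receptor chain and its kinase, rose as well. The specific receptor gene Il7r was at 115 to 121 FPKM in Skiv2l-deleted and 111 to 198 FPKM in control libraries, with overlap (limma adjusted p = 0.453). Jak1 (0.35, limma adjusted p = 0.192) and Stat5a (0.44, limma adjusted p = 0.139) were higher without overlap and did not pass. Stat5b overlapped (0.19, limma adjusted p = 0.373). Myc (0.51), the kinase gene Pim2 (-0.52) and Atf4 (0.22) did not pass. Atf4 passed without control 3 (0.48, limma adjusted p = 0.0372) and without control 3 and Skiv2l-deleted 2 together (0.49, limma adjusted p = 0.0491), and was at 0.04 without control 2. When 1 library was left out, the number of these regulators that rose was 0 without Skiv2l-deleted 1 or Skiv2l-deleted 3, 2 without Skiv2l-deleted 2, control 1 or control 2, and 6 without control 3. Over all genes the number that rose ran from 75 without Skiv2l-deleted 3 to 1010 without control 3. Each of Trp53, Foxo3 and Ddit3 kept its call in 1 of 6 omissions (highest limma adjusted p = 0.115, 0.183 and 0.147 in the order named), and Il2rg and Jak3 in 4 of 6 (0.0690 and 0.0889).

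Of 14 tested p53 targets outside the family, 2 rose and 0 fell (median 0.25), where 4.97% of all genes rose and 3.87% fell. Phlda3, an inhibitor of AKT, stood at 3.85, 4.67 and 5.35 FPKM in Skiv2l-deleted and 1.46, 1.83 and 1.87 FPKM in control libraries (1.04, limma adjusted p = 0.0132). Sesn2, a sestrin that restrains mTORC1, stood at 3.97, 4.21 and 4.84 FPKM in Skiv2l-deleted and 1.75, 1.87 and 1.91 FPKM in control libraries (0.91, limma adjusted p = 0.0123). Other targets did not pass, with Ccng1 at 0.58, Gadd45a at -0.55 and Btg2, the most abundant of those that did not pass, at -0.38. Mdm2 averaged 32.3 FPKM in Skiv2l-deleted and 41.2 FPKM in control libraries, without overlap (-0.34, limma adjusted p = 0.0762). In the other direction, also without overlap, Cdkn1a averaged 32.1 FPKM in Skiv2l-deleted and 21.2 FPKM in control libraries (0.53, limma adjusted p = 0.197). Ei24 averaged 29.7 FPKM in Skiv2l-deleted and 23.8 FPKM in control libraries, without overlap (0.31, limma adjusted p = 0.112). Of the 14 targets, 5 were higher and 3 lower without overlap (19.9% and 12.3% of all genes). Phlda3 lost its call without Skiv2l-deleted 3 or control 1 (highest limma adjusted p = 0.0686) and Sesn2 without Skiv2l-deleted 1, Skiv2l-deleted 3 or control 1 (highest limma adjusted p = 0.0713). Without control 3 there were 3 p53 targets higher and 2 lower, Mdm2 among the lower ones, and over all genes 1010 were higher and 757 lower.

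**Figure D4:**
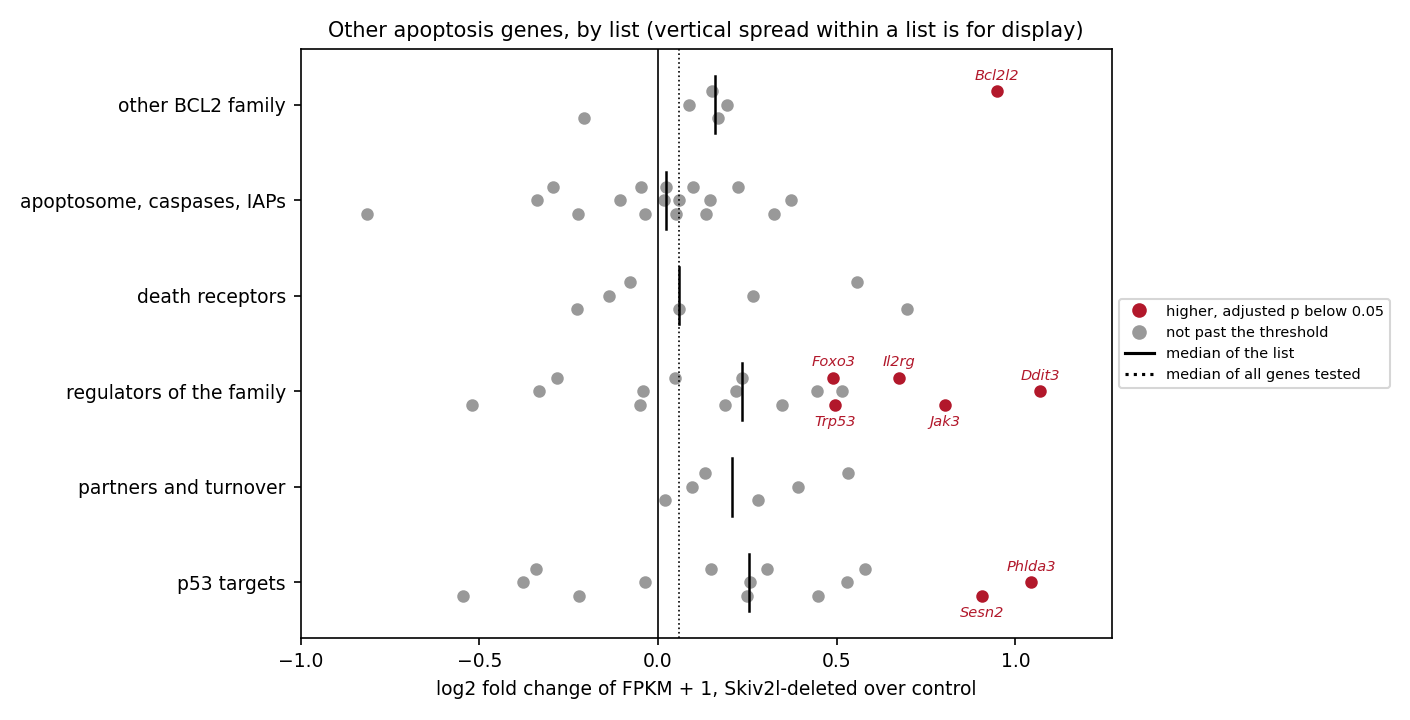
Log2 fold change of FPKM + 1, Skiv2l-deleted over control, of 67 further apoptosis genes in 6 lists, with called genes in red and named, the median of each list as a bar and that of all genes tested as a dotted line. The 8 called genes are all higher in Skiv2l-deleted cells, 5 of them among the regulators, and the caspase and death receptor lists hold none.

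For each member, the genes whose log2(FPKM + 1) followed it most closely over the 6 libraries were taken by Pearson's r. They were Rexo5 (0.993) and Hmgb3 (0.992) for Bcl2l1, Olfr77 (0.995) and Pik3cd (0.990) for Bbc3, Lrrc8d (0.994) and Ttc38 (0.993) for Bmf, and Zdhhc18 (0.998) and Kcnn4 (0.998) for Bok. For Mcl1 they were Snord104 (0.995) and Rab40c (0.994), for Bcl2 Map3k8 (0.992) and Gfm2 (0.973), and for Bcl2l11 Coa7 (0.998) and Tmed7 (0.997). For Bid they were Lyrm4 (0.997) and Afg3l2 (0.993), for Bax Psme1 (0.999) and Tnnt1 (0.995), and for Bak1 Ifit1 (0.993) and Prx (0.991). Over 6 libraries in 2 groups such values are common, and between 7 genes (for Bcl2) and 204 genes (for Bok) of 10824 compared exceeded 0.95.

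The myeloid signal was compared with the members library by library. The summed FPKM of 9 myeloid genes was 378, 2661 and 85.3 in Skiv2l-deleted 1, 2 and 3 and 135, 469 and 1476 in control 1, 2 and 3, and 0 of the 9 genes was called. Mpo, the defining enzyme of neutrophil precursors, was at 641 FPKM in Skiv2l-deleted 2 and 343 FPKM in control 3, against 4.30 to 8.99 FPKM in the other 4 libraries. The other 4 were not free of myeloid messenger RNA, since S100a8, of mature neutrophils, was at 100.1 FPKM in Skiv2l-deleted 1 and 129 FPKM in control 2, against 1.97 FPKM in Skiv2l-deleted 3 and 2.30 FPKM in control 1, and S100a9 and Ngp had the same pattern. Globin genes were also higher in Skiv2l-deleted 2. Control 3 held the highest control value of Bax, Bid, Bok, Bcl2l1 and Mcl1 and the lowest of Bcl2l11. Skiv2l-deleted 2 held the highest value of its group for Bax, Bbc3, Bmf, Bcl2l11 and Bcl2 and the lowest for Bok, Bcl2l1 and Bak1. In the 4 libraries without that pair, Bbc3 (1.46, limma adjusted p = 0.0235), Bok (1.63, 0.0141), Bid (0.82, 0.0200) and Bax (0.53, 0.0243) were higher and Bcl2l1 (-0.70, 0.0419) was lower, while Bmf did not pass (0.87, 0.0847). Nor did Bcl2l11 (0.17, limma adjusted p = 0.306), Bak1 (0.35, 0.114), Bcl2 (0.13, 0.652) and Mcl1 (0.09, 0.581) there. The ratios of the class sums kept their direction there, at log2 values of 0.75 for BH3-only, 0.57 for effector and -0.19 for survival genes.

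**Figure D5:**
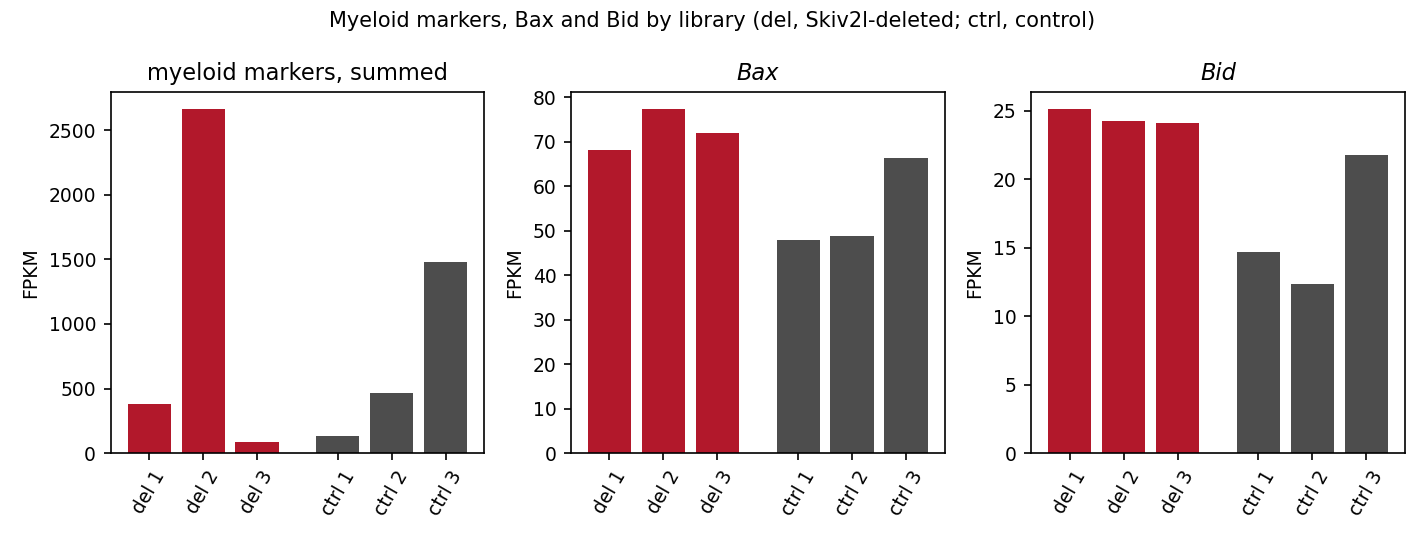
Summed FPKM of 9 myeloid marker genes, and FPKM of Bax and of Bid, in each Skiv2l-deleted (del, red) and control (ctrl, grey) library. Skiv2l-deleted 2 (2661 FPKM) and control 3 (1476 FPKM) hold the highest myeloid sums, and control 3 is the control with the highest Bax (66.3 FPKM) and Bid (21.8 FPKM).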

How the data were processed

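The authors deposited 1 table per library with FPKM, TPM and mean coverage (signal) per gene, per the file headers. FPKM was the unit analysed, the deposited TPM served as an alternative, and the deposited coverage gave read depth. Per the submitters' processing notes, coordinates are on GRCm38. Libraries were strand-specific mRNA libraries, per the labels' protocols. Not given in the sources used here were aligner, counting tool and strand setting. No read counts were listed, so depth per library is not known and no count model was used. Each library had 7 to 9 repeated identifiers, whose values were added up.

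Genotype was the only term of a linear model of log2(FPKM + 1), fitted per gene with limma 3.58.1 (R 4.3.3). Variances were moderated along a trend with mean level, and the fit was checked on simulated data. The text names all members, the called genes of each list with the 2 largest fold changes and the most abundant gene among those not called, and the 2 genes most like each member, leaving out predicted genes and immunoglobulin segments. A gene that this rule names is not reported here. Il7r, Jak1, Stat5a, Stat5b, Bad, Mdm2, Cdkn1a, Ei24, Pmaip1, Hrk, Bcl2l10, the Bcl2a1 genes, Gm20521 and single marker genes were added after their values were seen. The members and lists were chosen with earlier results of these data known.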

Additional observations from a re-analysis of the deposited data

How the results depend on the processing

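Over 17 alternatives, the direction of every member held except that of Mcl1, which was at -0.0305 with median-of-ratios scaling and ran from -0.0508 to 0.10 when 1 library was left out. The calls of Bbc3, Bcl2l1, Bmf and Bok held under both smaller pseudocounts, TPM, both other scalings, a fit without the trend and a covariate for control 3 and Skiv2l-deleted 2. At 5 FPKM in 3 libraries Bbc3 and Bcl2 were not tested. With no filter on low values 28354 genes were tested, 512 were called, and 1 member (Bbc3) and 3 pathway genes passed, while the fold changes of Bcl2l1 (-0.82), Bmf (0.91) and Bok (1.21) were as before. Bax (0.42) and Bid (0.60) passed with the covariate, which gave 2620 genes and 14 pathway genes, and Bax (0.53) and Bid (0.82) passed without that pair, which gave 1802 genes, while Bmf (0.87) did not.

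With 1 library left out the counts ran from 193 to 1767 genes, 1 to 6 members and 0 to 12 pathway genes. The log2 fold changes ran from -0.96 to -0.75 for Bcl2l1, 0.72 to 1.07 for Bmf, 0.98 to 1.42 for Bok, 1.43 to 1.76 for Bbc3, 0.34 to 0.57 for Bax, 0.43 to 0.81 for Bid, -0.19 to 0.25 for Dynll1 and -0.0354 to 1.27 for Tnfrsf1a. Same-numbered libraries did not deviate together (r = 0.09, -0.43 and -0.35 for numbers 1, 2 and 3 over 13539 genes). Skiv2l-deleted 2 and control 3, which had the highest myeloid sums, did (r = 0.56). So did Skiv2l-deleted 1 with control 2 (r = 0.49) and Skiv2l-deleted 3 with control 1 (r = 0.41). Deviations were taken from the mean of each group, so these values depend on one another. A check so dependent on these libraries cannot tell whether the numbers pair the mice. A replicate block gave 365 genes, 3 members (Bmf, at 0.91, was not called) and 1 pathway gene. The cause of these shifts was not tested. The class sums moved by less than the spread between libraries in each setting tried, and low read depth limits Bcl2 and Bbc3 in controls.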
